A study of Rattus norvegicus with 22 samples.

Results

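The genes described here are Hspa5, Hsp90b1, Dnajb9, Hyou1, Pdia4, Calr, Canx, Edem1, Sel1l and Xbp1, which encode chaperones of the endoplasmic reticulum (ER) and components of the unfolded protein response. They were chosen by gene symbol, as every probe set (a group of oligonucleotides that reads 1 transcript) whose single symbol is one of these names. This gave 18 of 31042 probe sets and 10 of 13695 genes with a single symbol. The array annotation carries Hsp90b1 under its older symbol Tra1, so 17 probe sets of 9 genes were found by the printed symbol and Hsp90b1 was added through its synonym in the RefSeq gene table. Where a gene has several probe sets, the one with the highest mean signal stands for the gene and the others are given beside it.

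RNA was hybridized to Affymetrix Rat Genome 230 2.0 arrays from male Fischer rats that carried a 9L tumor, a rat glioma line grown in culture and injected into the right caudate nucleus. The MRT rats (rats 6 to 11, n = 6) received microbeam radiation therapy, a synchrotron irradiation through an array of narrow beams, at day 10 after implantation. The beams passed from right to left, and the dose at the tumor was 400 Gy in the microbeams and 18 Gy in the valleys between them. The study chose this setup to irradiate both tissues similarly and states no separate dose for contralateral brain. Tissue was taken 6 h after irradiation. The untreated rats (rats 1 to 5, n = 5) carried the same tumors without irradiation. Tumor and contralateral brain came from each rat, giving 22 arrays in 4 groups: MRT tumor, untreated tumor, MRT contralateral brain and untreated contralateral brain. All 4 groups are tissue of tumor-bearing rats, so no group is healthy brain, and tissue was punched from sections rather than sorted into cells.

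Proteins that enter the ER are folded with the help of chaperones, and those that fail to fold are returned to the cytosol for degradation. When unfolded proteins accumulate, the membrane sensors IRE1, PERK and ATF6 raise the expression of chaperones and degradation factors and lower general protein synthesis. The chaperone BiP, encoded by Hspa5, binds these sensors at rest and is the most commonly used readout of the response.

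Many chaperone promoters are known to carry the ER stress response element, read by ATF6 and by spliced XBP1, in which CCAAT is followed after 9 bases by CCACG. The letters of this element, searched on both strands from 250 bases before to 50 bases after the RefSeq start sites of the GRCr8 assembly, were present in 22 of 33469 promoter windows (0.0657%) and in 21 of 27457 genes (0.0765%). They were found 6 times in the windows of 5 of the 10 genes, Hspa5, Hsp90b1, Canx, Xbp1 and Calr. These stretches are shown because they are the sequence feature that sets these 5 promoters apart from nearly all rat promoters. Capitals mark CCAAT and CCACG, and each line reads 5′ to 3′ on the strand given after it.
Hspa5: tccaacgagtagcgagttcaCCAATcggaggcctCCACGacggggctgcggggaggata
Hsp90b1, nearer the 5′ end of the window: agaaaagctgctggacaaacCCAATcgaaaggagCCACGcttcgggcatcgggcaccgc
Hsp90b1, nearer the start: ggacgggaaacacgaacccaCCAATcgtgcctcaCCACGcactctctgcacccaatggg
Canx: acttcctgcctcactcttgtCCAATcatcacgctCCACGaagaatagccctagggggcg
Xbp1: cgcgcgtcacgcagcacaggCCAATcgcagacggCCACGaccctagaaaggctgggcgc
Calr: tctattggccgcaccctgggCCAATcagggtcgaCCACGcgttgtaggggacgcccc

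The Hspa5 stretch lies at chr3:38452953-38453011 (plus strand), with its element at -43 to -25 from the start. The Xbp1 stretch lies at chr14:84604538-84604596 (plus strand, element at -65 to -47). The first Hsp90b1 stretch is at chr7:23012431-23012489 (minus strand, -176 to -158) and the second at chr7:23012327-23012385 (plus strand, opposite to the gene, -72 to -54). The Canx stretch is at chr10:35158049-35158107 (minus strand, -230 to -212). The Calr stretch is at chr19:40213117-40213173 (minus strand, opposite to the gene, -232 to -214). Outside the 10 genes, the 21 genes with these letters included Creld2, Derl3, Dnajc3 and Ero1b, which also act in ER folding or degradation. The rest outside the 10 were Calr4, Ankmy2, Birc5, Foxd4, Hnrnpa3, Pan2, Ppm1l, Zfand2a, Zfp57 and genes with LOC symbols only. CCAAT alone was in 37.5% of promoters and CCACG alone in 31.6%, each in all 10 genes. The element TGACGTGG, known as a site of spliced XBP1, was in 0.595% of promoters and in Hyou1 alone among the 10 genes, in 1 of its 2 windows. Read on the other strand, its letters always hold a CCACG. The cyclic AMP element TGACGTCA was in 1.83% of promoters and in 0 of the 10 genes. A match is a description of the letters and does not show that a factor binds there.

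The deposited signals ranged from 10 to 36564 on the linear scale, and array number, not depth, limits the precision. Except for Hyou1, the genes were bright, and the probe sets of Canx, Hsp90b1 and Hspa5 exceeded 98.9%, 98.7% and 98.4% of all probe sets in mean level, against 50.9% for Hyou1. Tissue labels were checked with marker genes. The summed signal of 6 genes of dividing cells was 12602 to 22639 in MRT tumors and 13755 to 30627 in untreated tumors, against 3172 to 4113 in MRT contralateral brain and 2923 to 3402 in untreated contralateral brain. The summed signal of 8 neuron markers was 38556 to 60731 in MRT tumors and 32985 to 58448 in untreated tumors. It was 77311 to 82543 in MRT contralateral brain and 71948 to 86920 in untreated contralateral brain. No tissue free of neurons was measured, so the source of this signal in tumor was not tested. In tissue that was not sorted into cells, fewer cells of a type and less RNA per cell cannot be told apart. Arrays of rats 3 and 7 stood apart in both tissues. Their 5′ minus 3′ gap of beta-actin, a measure of RNA integrity and labelling in which lower values mean weaker 5′ signal, was the lowest of each tissue (log2 -2.45 in rat 3 and -2.35 in rat 7 in tumor, -2.06 in rat 7 followed by rat 3 in contralateral brain). Values without these rats are given beside the results where they were recomputed.

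The first comparison asked how the levels of these genes differed between tumor and contralateral brain. Edem1 and Pdia4 were several times higher in tumor than in contralateral brain, Hspa5 and Hsp90b1 were higher by smaller factors, and the brightest probe sets of Dnajb9, Hyou1, Calr, Sel1l and Xbp1 did not pass the test in either group of rats. Of 18 probe sets, 10 passed in MRT rats (8 higher and 2 lower in tumor) and 9 in untreated rats (8 higher and 1 lower), by limma with a false discovery rate (FDR) of 5% over all 31042 probe sets. This test called 54.2% of all probe sets in MRT rats (22.8% higher and 31.4% lower) and 54.8% in untreated rats (22.6% higher and 32.2% lower). Counting each gene by its brightest probe set, 4 of 10 were higher in both groups of rats, and 1, Canx, was lower in MRT rats. Of all 13695 genes, 4083 were higher and 4361 lower in MRT rats, and 4181 higher and 4188 lower in untreated rats. The median log2 difference of the 10 genes was 0.11 in MRT rats and 0.15 in untreated rats, against -0.06 and -0.05 over all genes.

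**Figure D1:**
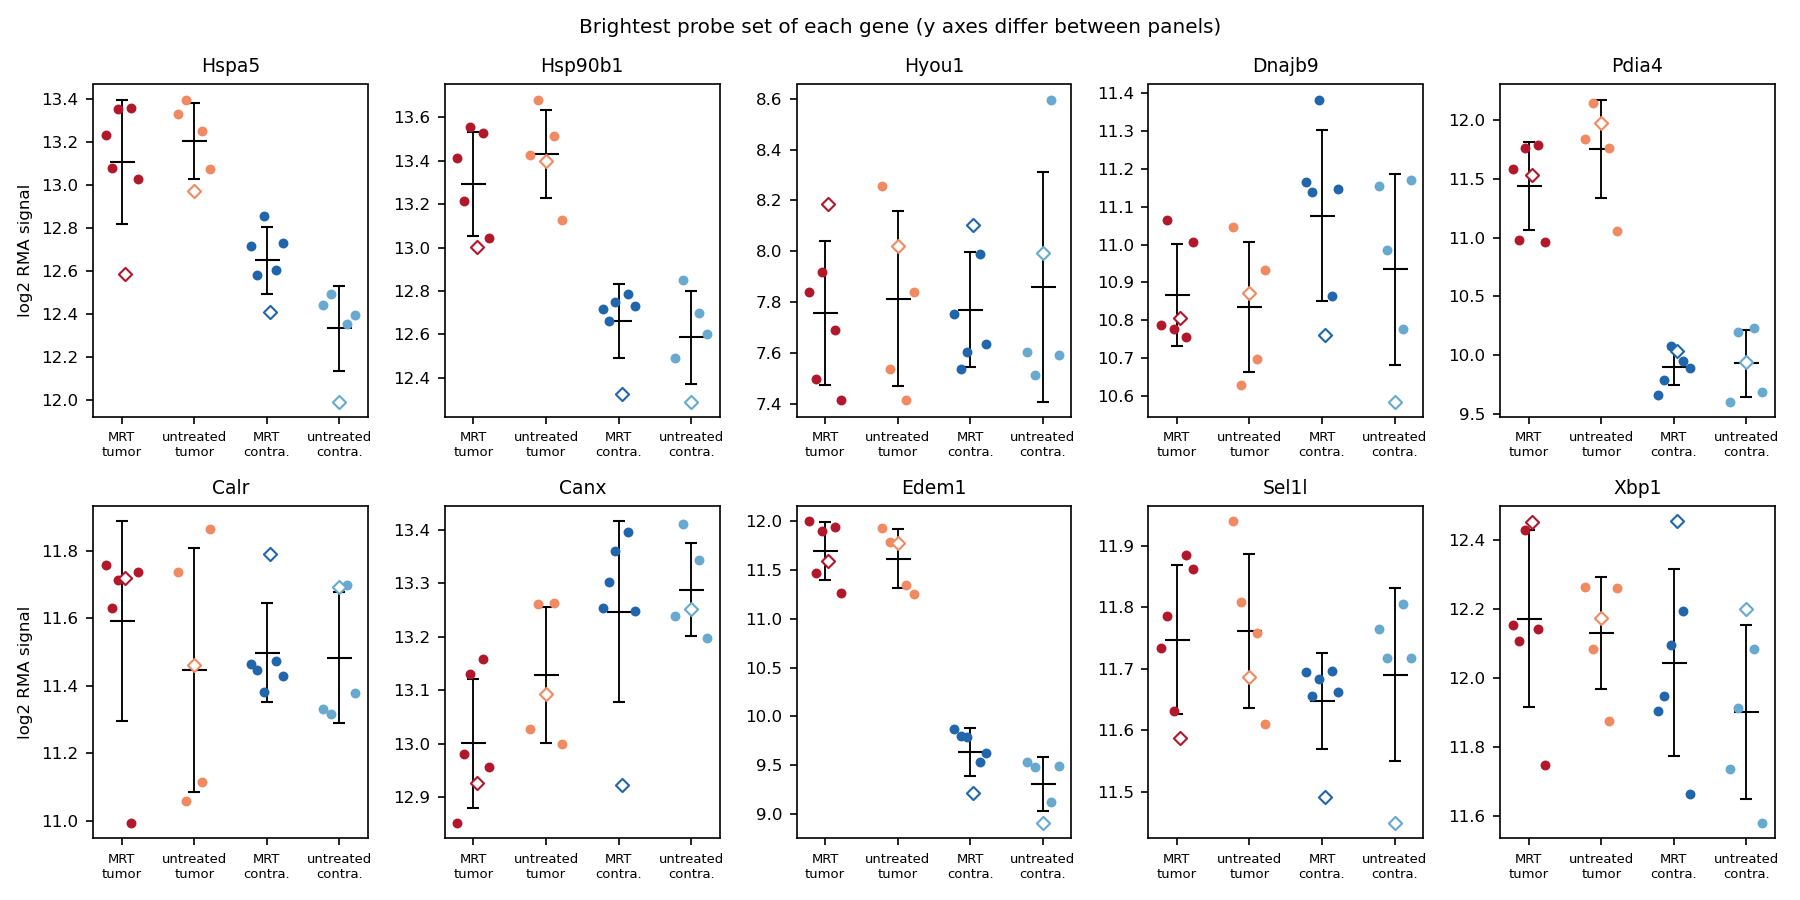
Signal of the brightest probe set of each of the 10 genes on every array (log2 RMA signal, axes differ between panels), in MRT tumor, untreated tumor, MRT contralateral brain and untreated contralateral brain, with black bars for mean ± SD and open diamonds for rats 3 and 7. Edem1 and Pdia4 separate by tissue on every array, and Hsp90b1 less widely. Hspa5 overlaps between tissues through the tumor of rat 7. Dnajb9, Hyou1, Calr and Xbp1 have overlapping ranges in all 4 groups.

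Among the general chaperones, Hspa5 (chr3:38453016-38457475) encodes BiP. Its signal was 10492, 6163, 10522, 8378, 9629 and 8666 in MRT tumors (rats 6 to 11), against 7436, 5439, 6229, 6792, 6747 and 6141 in the contralateral brain of the same rats. It was 10316, 10800, 8056, 9770 and 8632 in untreated tumors (rats 1 to 5), against 5569, 5764, 4079, 5235 and 5392 in untreated contralateral brain. Tumor was higher within each of the 11 rats, and across rats the tissues overlapped after MRT, through the low tumor of rat 7, and not in untreated rats. The log2 difference was 0.46 ± 0.12 (SE) in MRT rats (1.37-fold, limma adjusted p = 0.00331) and 0.87 ± 0.13 in untreated rats (1.83-fold, adjusted p = 1.49e-05).

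Hsp90b1 encodes the ER member of the Hsp90 family, which completes the folding of a set of client proteins downstream of BiP. Its signal ranged from 8211 to 12054 in MRT tumors, against 5124 to 7055 in MRT contralateral brain. In untreated rats it ranged from 8936 to 13143 in tumor, against 5005 to 7385 in contralateral brain. The tissues did not overlap in either group of rats, and tumor was higher within each of the 11 rats. The log2 difference was 0.63 ± 0.12 in MRT rats (adjusted p = 0.000139) and 0.84 ± 0.13 in untreated rats (adjusted p = 1.69e-05).

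Dnajb9 encodes a J-domain co-chaperone that hands unfolded proteins to BiP, and Hyou1 a large relative of the Hsp70 family that exchanges the nucleotide of BiP. Dnajb9 was at 1730 to 2144 in MRT tumors and 1582 to 2114 in untreated tumors, against 1734 to 2671 in MRT contralateral brain and 1536 to 2306 in untreated contralateral brain. Its tissue difference was -0.21 (95% confidence interval -0.45 to 0.03) in MRT rats and -0.10 (-0.36 to 0.16) in untreated rats. Hyou1 was at 171 to 291 in MRT tumors and 171 to 306 in untreated tumors, against 186 to 275 in MRT contralateral brain and 183 to 387, the highest in rat 4, in untreated contralateral brain. For Hyou1 the difference was -0.01 (-0.39 to 0.36) in MRT rats and -0.05 (-0.46 to 0.36) in untreated rats, with overlapping tissues in both. The second, dim probe set of Hyou1 (1370665_at) read 42 to 54 in MRT tumors and 42 to 50 in untreated tumors, against 48 to 59 and 52 to 70 in the contralateral brain of MRT and untreated rats. It was lower in untreated tumors by limma (log2 -0.35 ± 0.09, adjusted p = 0.00286), but with signals below 58, the 25th percentile of all signals, set to 58 the difference was -0.07 (adjusted p = 0.12).

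Pdia4 encodes a protein disulfide isomerase, which forms and rearranges disulfide bonds. Its signal was 3471, 2968, 3543, 1997, 3075 and 2021 in MRT tumors, against 1082, 1049, 989, 951, 811 and 886 in MRT contralateral brain. It was 3667, 4539, 4016, 3476 and 2133 in untreated tumors, against 779, 1171, 986, 1203 and 825 in untreated contralateral brain. The lowest tumor array exceeded the highest contralateral array in both groups of rats. The log2 difference was 1.53 ± 0.18 (2.90-fold, adjusted p = 3.36e-07) in MRT rats and 1.82 ± 0.19 (3.54-fold, adjusted p = 1.18e-07) in untreated rats.

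Calr and Canx encode calreticulin, which is soluble, and calnexin, which spans the membrane. Both hold glycoproteins by their trimmed sugar chains while they fold. Calr was at 2037 to 3461 in MRT tumors and 2132 to 3729 in untreated tumors, against 2665 to 3546 in MRT contralateral brain and 2547 to 3323 in untreated contralateral brain. Its groups overlapped, and the difference was 0.09 (-0.21 to 0.40) in MRT rats and -0.04 (-0.37 to 0.30) in untreated rats. The 3 probe sets of Canx disagreed. The brightest, 1371686_at, read 7392 to 9144 in MRT tumors, against 7766 to 10770 in MRT contralateral brain, and passed as lower in tumor (log2 -0.25 ± 0.08, adjusted p = 0.0169), with overlapping tissues. The call was lost without MRT rat 10 (adjusted p = 0.064) or rat 11 (0.053) and with cyclic loess scaling in place of the deposited scaling (-0.12, adjusted p = 0.18). In untreated rats the same probe set read 8188 to 9828 in tumor and 9390 to 10886 in contralateral brain and did not pass (-0.16 ± 0.09, adjusted p = 0.146). Canx 1388442_at was higher in tumor, by 0.43 ± 0.13 in MRT rats (adjusted p = 0.00964) and 0.52 ± 0.15 in untreated rats (adjusted p = 0.00477), and 1371687_at did not pass in either (-0.06 ± 0.35 and -0.30 ± 0.38 for MRT and untreated rats). A direction for Canx as a gene therefore could not be given.

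Edem1 (chr4:143350989-143385693) encodes a lectin that selects misfolded glycoproteins for ER-associated degradation. Its brightest probe set, 1372533_at, read 3820, 3090, 3927, 2457, 4090 and 2840 in MRT tumors, against 882, 593, 739, 789, 934 and 889 in MRT contralateral brain. It read 3903, 3521, 3497, 2597 and 2434 in untreated tumors, against 742, 717, 480, 560 and 719 in untreated contralateral brain. No array of one tissue reached the range of the other. The log2 difference was 2.06 ± 0.16 (4.17-fold, adjusted p = 7.4e-10) in MRT rats and 2.31 ± 0.17 (4.94-fold, 95% confidence interval 3.87 to 6.31, adjusted p = 4.82e-10) in untreated rats. Probe sets 1384186_at and 1395248_at gave 1.65 ± 0.17 and 1.87 ± 0.17 in MRT rats and 2.06 ± 0.18 and 2.77 ± 0.19 in untreated rats. The fourth, 1390328_at, stayed between 19 and 35 on all arrays, near the lowest signals of the array. It passed as lower in MRT tumors (-0.29 ± 0.12, adjusted p = 0.036), a call that was lost with low signals set to 58 (-0.00), with cyclic loess scaling (-0.20, adjusted p = 0.13) and with the rat as a block (-0.29, adjusted p = 0.057).

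Sel1l encodes the adaptor of the Hrd1 ubiquitin ligase, which carries degradation substrates out of the ER. Its brightest probe set read 3079 to 3782 in MRT tumors and 3125 to 3928 in untreated tumors, against 2881 to 3320 and 2795 to 3577 in the contralateral brain of MRT and untreated rats. The difference was 0.10 (-0.06 to 0.26) in MRT rats and 0.07 (-0.11 to 0.25) in untreated rats. The dimmer 1376073_at was higher in tumor by 0.46 ± 0.10 in MRT rats (adjusted p = 0.000511) and 0.49 ± 0.11 in untreated rats (adjusted p = 0.000688), and 1392955_at did not pass in either (0.22 ± 0.11 and 0.18 ± 0.12 for MRT and untreated rats). It passed in MRT rats with the rat as a block (adjusted p = 0.02), and with cyclic loess both it (0.31, adjusted p = 0.01) and the brightest probe set (0.20, adjusted p = 0.024) passed there. Xbp1 encodes the transcription factor whose mRNA is spliced by IRE1. Its signal was 3440 to 5598 in MRT tumors and 3751 to 4915 in untreated tumors, against 3246 to 5611 in MRT contralateral brain and 3058 to 4700 in untreated contralateral brain. The tissue difference was 0.13 (-0.15 to 0.41) in MRT rats and 0.23 (-0.08 to 0.54) in untreated rats, and the array does not separate the spliced from the unspliced form.

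Tumor and contralateral brain of a rat share the animal, and within single rats tumor was the higher tissue in all 11 rats for the 8 probe sets that passed as higher. The log2 difference of Edem1 1372533_at within a rat was 1.64 to 2.41 (median 2.12) in the 6 MRT rats and 1.76 to 2.87 (median 2.30) in the 5 untreated rats. For Pdia4 it was 1.07 to 1.92 (median 1.59) in MRT rats and 1.37 to 2.23 (median 1.95) in untreated rats. For Hspa5 it was 0.18 to 0.76 (median 0.50) in MRT rats and 0.68 to 0.98 (median 0.90) in untreated rats. Canx 1371686_at was higher in tumor in 1 of 6 MRT rats and 0 of 5 untreated rats. Groups did not overlap, with tumor higher, for 5 of 18 probe sets in MRT rats and 8 in untreated rats, against 13.6% and 16.1% of all probe sets. With tumor lower this held for 0 and 1, against 16.5% and 20.4% of all probe sets. Several Edem1 probe sets are among those counts, so they do not stand for as many genes.

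Tumor arrays low in Pdia4 and Edem1 also had other marker levels. The lowest Pdia4 signals of any tumor, 1997, 2021 and 2133, belonged to MRT rats 9 and 11 and untreated rat 5. These arrays also had the lowest summed signals of dividing-cell genes among tumors, 12602, 12978 and 13755, with 17219 to 30627 on the other 8 tumor arrays. Their neuron marker sums were 60731, 57155 and 58448, with 32985 to 58205 on the others. Choroid plexus marker sums were 21059, 19168 and 630, with 421 to 27804 on the others. The 5′ minus 3′ gap of the labelling controls was log2 -0.78, -0.73 and -0.99 on these arrays, with -2.80 to -0.82 on the others. Edem1 1372533_at was lowest in untreated rat 5 (2434), MRT rat 9 (2457), untreated rat 4 (2597) and MRT rat 11 (2840). Not all 10 genes were low in the tumors of rats 9, 11 and 5. Dnajb9 read 2058, 2144 and 1954 there (1582 to 2114 on the other tumor arrays), and Calr 3413, 3172 and 3729 (others 2037 to 3461). The part of tissue content or of labelling in these low values and in the tissue differences was not tested. Plasma cells are a secretory cell type known for high ER chaperone content, and the summed signal of their 4 measured markers was 3395 to 6987 in MRT tumors and 3377 to 6408 in untreated tumors, against 311 to 422 in MRT contralateral brain and 245 to 367 in untreated contralateral brain. Of these markers, 1 was higher in tumor, Sdc1, a syndecan also found on other cells, by 5.28 in MRT rats and 5.90 in untreated rats. Mzb1, Jchain and Tnfrsf17 were at -0.02, -0.51 and -0.25 in MRT rats, where Jchain and Tnfrsf17 passed as lower, and at -0.19, -0.22 and -0.21 in untreated rats, where none of them passed. The part of plasma cells in the tissue differences was not tested.

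The second comparison asked how the genes responded to MRT in contralateral brain. Only Edem1 passed the test, by 2 of its 4 probe sets, both higher in MRT rats. Hspa5 was the other gene whose interval lay above 0, and it did not pass. The 2 called probe sets of 18 compare with 4.1% of all probe sets called in either direction and 2.86% called higher. The share in either direction was 3.19% to 6.4% when 1 rat was left out, highest without MRT rat 7, and 7.05% without rats 3 and 7. At an unadjusted p below 0.05 there were 4 of 18 (Hspa5 and 3 of Edem1), against 13% of all probe sets. SAM, the permutation test of the study's methods, rerun at the FDR nearest 5%, also called 2, against 5.32% of all probe sets. By brightest probe set, 0 of 10 genes passed in limma and 2 of 10 had an unadjusted p below 0.05. Of all 13695 genes counted in this way, 605 passed as higher, 189 passed as lower and 2124 had an unadjusted p below 0.05. The median log2 difference was 0.05, against -0.00 over all genes.

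Edem1 1395248_at read 96, 90, 111, 84, 110 and 77 in MRT contralateral brain, against 52, 54, 63, 67 and 48 in untreated contralateral brain. Each MRT array exceeded every untreated array, which was so for 1 of 18 probe sets and, in the higher direction, for 2.51% of all probe sets. The log2 difference was 0.74 ± 0.12 (1.67-fold, 95% confidence interval 1.39 to 1.99, adjusted p = 0.00242). An exact two-sided permutation test over all 462 splits of the 11 rats gave p = 0.00216, the smallest this design allows, and 0.0779 after adjustment over the 36 such tests run. The untreated signals lie about the 25th percentile of the array, 58.

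Edem1 1384186_at read 222, 113, 159, 144, 188 and 179 in MRT contralateral brain, against 109, 102, 106, 103 and 122 in untreated contralateral brain. Rat 7, one of the rats with weak 5′ signal, was the lone MRT array below an untreated one. The difference was 0.60 ± 0.15 (1.51-fold, adjusted p = 0.0333). This call was lost in 8 of 11 fits that each left out 1 rat (adjusted p from 0.0014 to 0.092), and without rats 3 and 7 together it was 0.70 ± 0.12 (adjusted p = 0.0035). On contralateral arrays the 5′ minus 3′ gap of the labelling controls was flat, -0.80 to -0.55 on the log2 scale, in 5 rats (3 MRT, 2 untreated) and steep, -1.55 to -1.25, in 6 (3 and 3). Within these groups 1395248_at gave 0.84 (adjusted p = 0.029) and 0.69 (adjusted p = 0.13), and 1384186_at 0.55 (0.068) and 0.61 (0.62), for flat and steep rats. The brightest Edem1 probe set had 882, 593, 739, 789, 934 and 889 in MRT rats, against 742, 717, 480, 560 and 719 in untreated rats. These groups overlapped, and the difference was 0.33 ± 0.14 (adjusted p = 0.348). The near-floor probe set gave 0.08 ± 0.14.

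**Figure D2:**
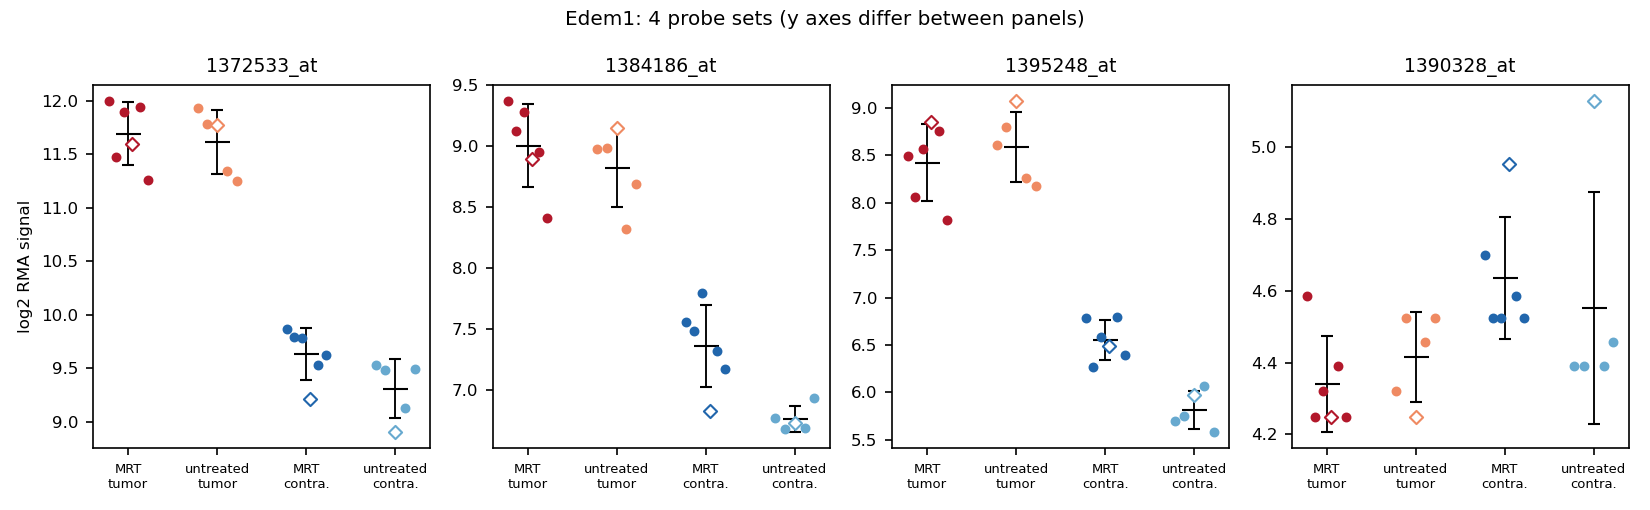
Signal of the 4 Edem1 probe sets on every array (log2 RMA signal, axes differ between panels) in MRT and untreated tumor and in MRT and untreated contralateral brain, with black bars for mean ± SD and open diamonds for rats 3 and 7. In contralateral brain 1395248_at separates MRT from untreated rats, 1384186_at overlaps by rat 7, and 1390328_at stays between signals of 19 and 35 in all groups.

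Hspa5 had 7436, 5439, 6229, 6792, 6747 and 6141 in MRT contralateral brain, against 5569, 5764, 4079, 5235 and 5392 in untreated contralateral brain. Among MRT rats, rat 7 fell within the untreated range and the other 5 lay above it, and rat 3 was the lowest of the untreated. The difference was 0.32 ± 0.11 on the log2 scale (1.24-fold, 95% confidence interval 1.06 to 1.46), adjusted p = 0.169. Without rats 3 and 7 it was 0.28 ± 0.08 (adjusted p = 0.062). The exact permutation p was 0.0108 (0.13 adjusted over the 36 tests).

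The other 8 genes had differences between -0.09 and 0.14. The 95% confidence intervals were narrowest for Sel1l (-0.22 to 0.14), Canx (-0.24 to 0.16), Calr (-0.21 to 0.24), Pdia4 (-0.31 to 0.25) and Hsp90b1 (-0.17 to 0.32), and wider for Dnajb9 (-0.15 to 0.43), Xbp1 (-0.17 to 0.46) and Hyou1 (-0.49 to 0.31). All had overlapping groups. Markers of other cells differed between the same groups. The summed microglia and macrophage markers were 1455 to 1903 in MRT contralateral brain, against 2298 to 2595 in untreated contralateral brain, with 4 of 6 genes lower and Cd68 and Itgam higher. The endothelial sums were 1312 to 2771 in MRT rats, against 3038 to 3617 in untreated rats. Of these 5 endothelial genes only 2 passed as lower and 0 as higher, with log2 differences from -1.48 to 0.56 (median -0.09). The fibroblast and pericyte sums were 896 to 2247 in MRT rats, against 2060 to 2725 in untreated rats, and 3 of 5 genes passed as lower. No defining marker of these lists lay below the 25th percentile in mean, and the part of cell content in the Edem1 difference was not tested.

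In tumor, none of the genes passed after MRT. Of 18 probe sets, 0 passed in limma, against 0.918% of all probe sets, and 0 passed in SAM, against 1.93%. The limma share over all probe sets was 0.432% without untreated rat 2, 1.54% without MRT rat 7, 0.789% without rats 3 and 7 and 1.97% with all 4 groups in one fit, and no probe set of the array was called within the 5 flat-gap rats. None had an unadjusted p below 0.05, which 8.39% of all probe sets had. The median log2 difference of the 10 genes was -0.03, against -0.01 over all genes. The widest difference of a brightest probe set was that of Pdia4, with a mean signal of 2846 ± 685 (SD, n = 6) in MRT tumors and 3566 ± 897 (n = 5) in untreated tumors (log2 -0.32, 95% confidence interval -0.79 to 0.15). Hspa5 averaged 8975 ± 1642 in MRT tumors and 9515 ± 1147 in untreated tumors (-0.10, -0.41 to 0.22). Edem1 averaged 3371 ± 667 in MRT tumors and 3190 ± 639 in untreated tumors (0.08, -0.29 to 0.45). Hsp90b1 gave -0.14 (-0.43 to 0.15), Calr 0.14 (-0.26 to 0.55) and Canx -0.13 (-0.32 to 0.06). For Xbp1, Dnajb9, Hyou1 and Sel1l the differences were 0.04, 0.03, -0.06 and -0.01. For some genes, Calr, Edem1 and Hyou1 among them, the intervals in tumor hold a rise of the size seen for Hspa5 in contralateral brain. The tumor interval of Hspa5 itself ended below that rise, but it overlapped the Hspa5 interval in contralateral brain (0.08 to 0.55).

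**Figure D3:**
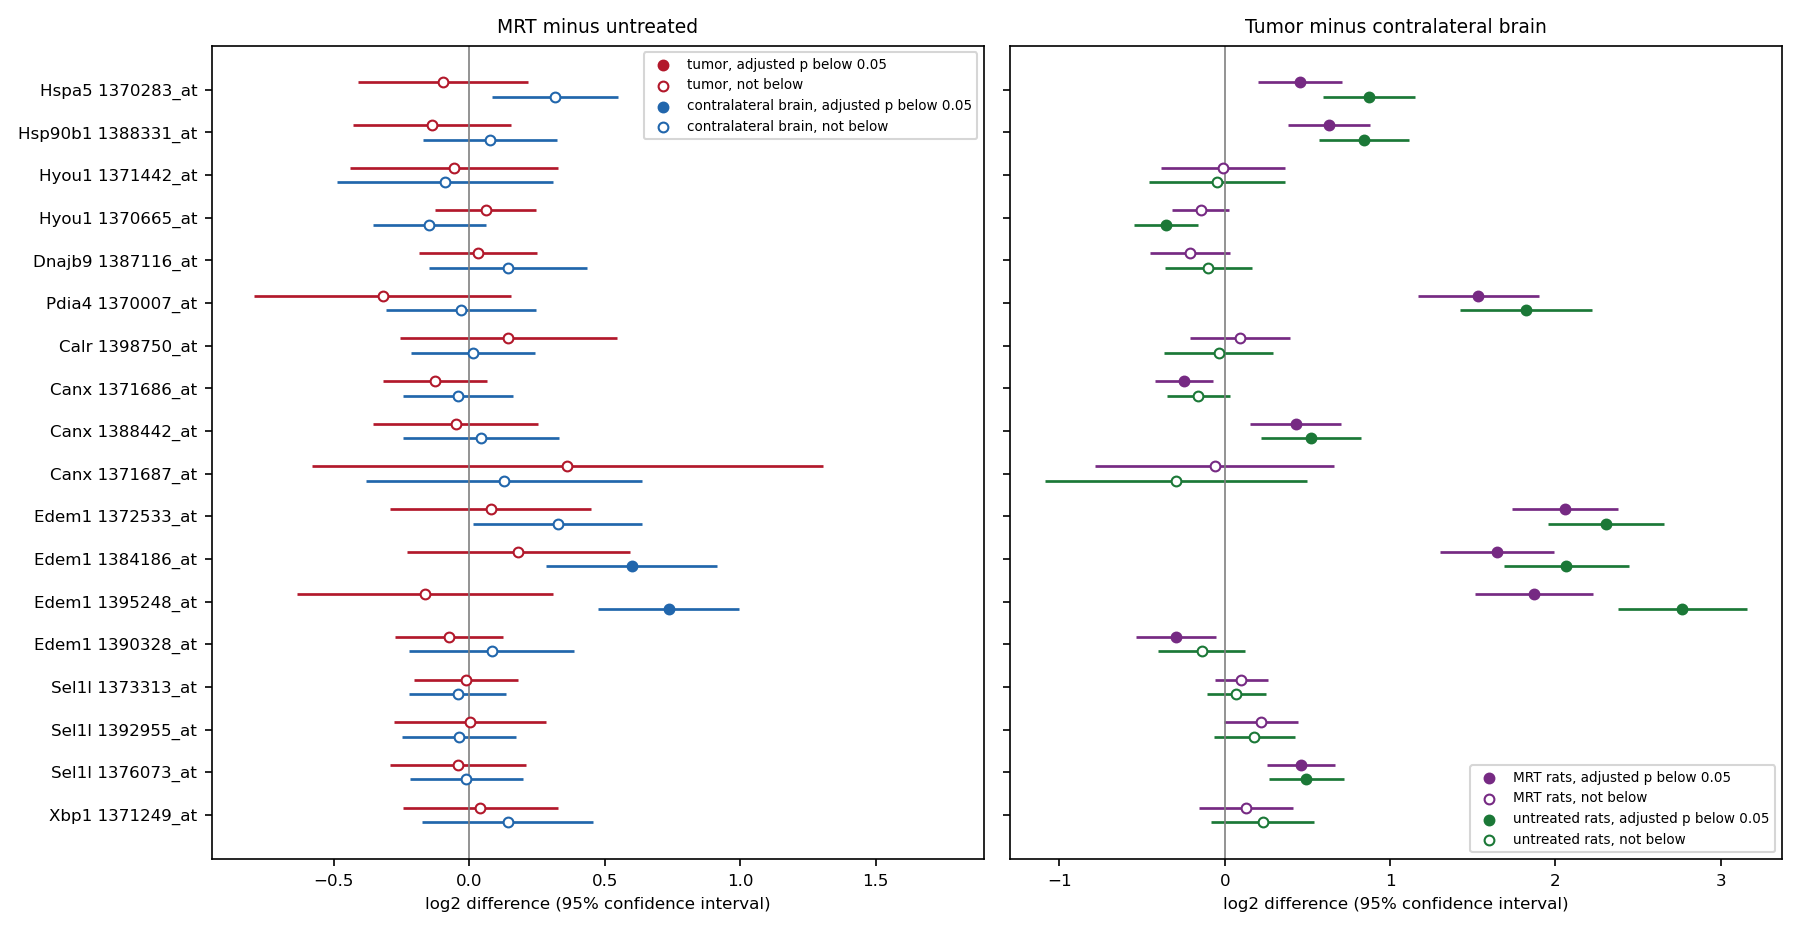
Log2 difference with 95% confidence interval for the 18 probe sets, for MRT minus untreated in tumor and in contralateral brain and for tumor minus contralateral brain in MRT and in untreated rats, with filled points where the limma adjusted p is below 0.05. Filled points are absent for MRT in tumor, are 2 Edem1 probe sets for MRT in contralateral brain, and number 10 and 9 for the tissue difference in MRT and untreated rats.

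Whether the MRT response itself differed between the tissues was tested as an interaction in the fit of all 22 arrays. None of 18 probe sets passed, against 0.467% of all probe sets (0.219% to 0.841% when 1 rat was left out and 0.763% without rats 3 and 7), and 2 had an unadjusted p below 0.05, against 3.85%. For Edem1 1395248_at the response in tumor minus that in contralateral brain was -0.90 ± 0.26 (adjusted p = 0.221). For Hspa5 it was -0.41 ± 0.18 (adjusted p = 1). The responses of these genes were thus not shown to differ between tumor and contralateral brain.

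Beyond the group means, the genes varied together in part. Deviations from the group mean were compared between genes over the 22 arrays, which come from 11 rats. The correlations are given as descriptions. Over the 45 gene pairs the median Pearson r was 0.04, from -0.68 to 0.81, and 24 pairs were above 0. The highest was Hspa5 with Hsp90b1 at 0.81 (0.83 over tumor arrays and 0.80 over contralateral arrays). It was followed by Canx with Hsp90b1 at 0.74 and Hyou1 with Xbp1 at 0.73. Calr opposed Canx at -0.68 and Hsp90b1 at -0.62. Pdia4 and Edem1 gave 0.83 over tumor arrays and -0.46 over contralateral arrays. Rats 3 and 7 took part in these values. Calr was highest in rat 7 among MRT contralateral arrays, at 3546, where Canx (7766), Hsp90b1 (5124) and Sel1l (2881) were lowest. Without both rats the median r was 0.14 over 18 arrays, from -0.66 to 0.93.

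**Figure D4:**
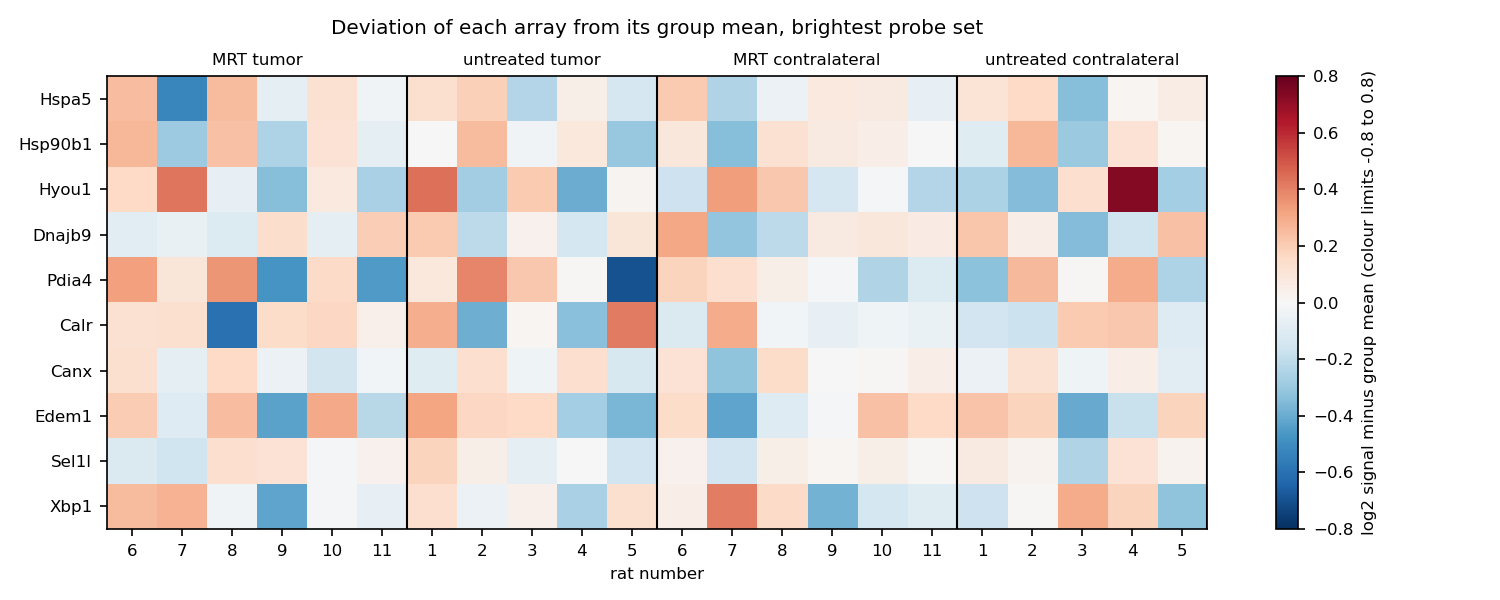
Deviation of each gene from its group mean (log2, colour) for the 22 arrays, in columns by group with MRT tumor first, and the 10 genes in rows. Hspa5 and Hsp90b1 share the sign of their deviation on most arrays, and the strongest colours are Hyou1 in contralateral brain of untreated rat 4 (signal 387) and Pdia4 in tumor of untreated rat 5 (2133).

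Probe sets of 1 gene did not always move together either. Over 22 arrays Edem1 1372533_at followed 1384186_at with r = 0.74 and 1395248_at with r = 0.39 (0.73 and 0.59 without rats 3 and 7). With 1395248_at it was 0.75 over tumor arrays and -0.36 over contralateral arrays. The non-member genes with the pattern most like the mean of the 10 genes, by Pearson r of group-centred log2 signal over 22 arrays and 9180 genes compared, were Slain2 (0.87), Stag1 (0.87), Smndc1 (0.86), Anp32e (0.84), Atp23 (0.84) and Akt1 (0.83).

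Other genes of ER protein handling were read from 6 lists. In the tumor and contralateral brain comparison, ER folding and disulfide enzymes were mostly higher in tumor, 13 of 19 measured in MRT rats and 14 in untreated rats, with 2 lower in each. Their median log2 difference was 0.79 in MRT rats and 1.18 in untreated rats, against -0.06 and -0.05 over all genes. The disulfide isomerase Pdia6 was 2.21 ± 0.09 higher in untreated tumors (adjusted p = 2.58e-14) and Creld2, a disulfide-handling ER protein, 2.16 ± 0.21 (3.02e-08), while Ero1a, the oxidase that recharges these isomerases, was lower (-0.62, 8.41e-05). The translocon and signal peptidase genes that bring proteins into the ER were higher for 10 of 14 in MRT rats and 11 in untreated rats, with 1 lower in each. Sec61a1, the channel subunit, was 1.92 higher in untreated tumors (adjusted p = 1.11e-08). N-glycosylation genes were higher for 6 of 8 and lower for 1 in both groups of rats. ER-associated degradation genes were split, 5 of 14 higher and 2 lower in both groups of rats, with a median of 0.14 in MRT rats and 0.03 in untreated rats. Edem2, a relative of Edem1, was 0.75 higher in untreated tumors (adjusted p = 0.00115). Of the sensors and their activators, 5 of 9 were higher and 1 lower in both, Ern1, which encodes IRE1, by 1.38 in untreated rats (adjusted p = 2.07e-06). The genes downstream of the sensor PERK were higher in tumor for 6 of 8, with none lower, in MRT rats (median 0.67) and for 7, with 1 lower, in untreated rats (median 0.65). Ddit3, which encodes the stress factor CHOP, was 3.03 higher in MRT tumors (adjusted p = 1.52e-12) and 2.54 higher in untreated tumors (1.2e-10). Over all 13695 genes, 4083 were higher and 4361 lower in MRT rats, and 4181 higher and 4188 lower in untreated rats.

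After MRT, few genes of the folding, degradation, sensor, translocon and glycosylation lists passed. In tumor, 0 genes of these 5 lists passed, against 121 higher and 52 lower of all 13695 genes, and the list medians lay between -0.15 and 0.08. The largest differences there were those of Ern1 (0.66 ± 0.21, limma adjusted p = 0.278) and Sdf2l1 (-0.66 ± 0.19, adjusted p = 0.206). In contralateral brain 2 genes passed, the disulfide isomerase P4hb (0.43 ± 0.09, adjusted p = 0.0161) and the ER-bound transcription factor Creb3 (0.27 ± 0.07, adjusted p = 0.0493). The genes downstream of PERK had larger medians. In tumor 5 of 8 rose (median 1.25, range 0.61 to 1.76) and in contralateral brain 5 of 8 rose (median 0.41, range -0.49 to 4.08), and none passed as lower in either. Of all 13695 genes 121 rose and 52 fell in tumor, and 605 rose and 189 fell in contralateral brain. Trib3, a pseudokinase induced by the integrated stress response, rose by 1.64 ± 0.18 in tumor (adjusted p = 0.00129) and was at 0.42 in contralateral brain (adjusted p = 0.192), and this difference between tissues passed (1.23, adjusted p = 0.0188). Chac1, a glutathione-degrading enzyme, rose by 1.15 in tumor (adjusted p = 0.00304) and was at 0.15 in contralateral brain (interaction 1.00, adjusted p = 0.026). The highest interaction of this list was that of Nupr1 (1.59 ± 0.34, limma adjusted p = 0.0322). Of the 8 genes, 3 passed with a higher response in tumor and 1 with a lower one. Sesn2, a stress-induced sestrin that is also a p53 target, rose by 1.63 ± 0.12 in tumor (adjusted p = 7.53e-05) and 1.66 ± 0.11 in contralateral brain (7.33e-07). Atf3, which radiation and many other stresses are known to induce, rose by 4.08 ± 0.21 in contralateral brain (adjusted p = 8.05e-08) and was at 1.76 in tumor (0.0621), a difference of -2.33 between tissues (adjusted p = 0.018). Ddit3 rose by 0.41 in contralateral brain (adjusted p = 0.00498) and was at 0.90 in tumor (adjusted p = 0.0976). Several of these genes are also targets of pathways other than PERK.

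**Figure D5:**
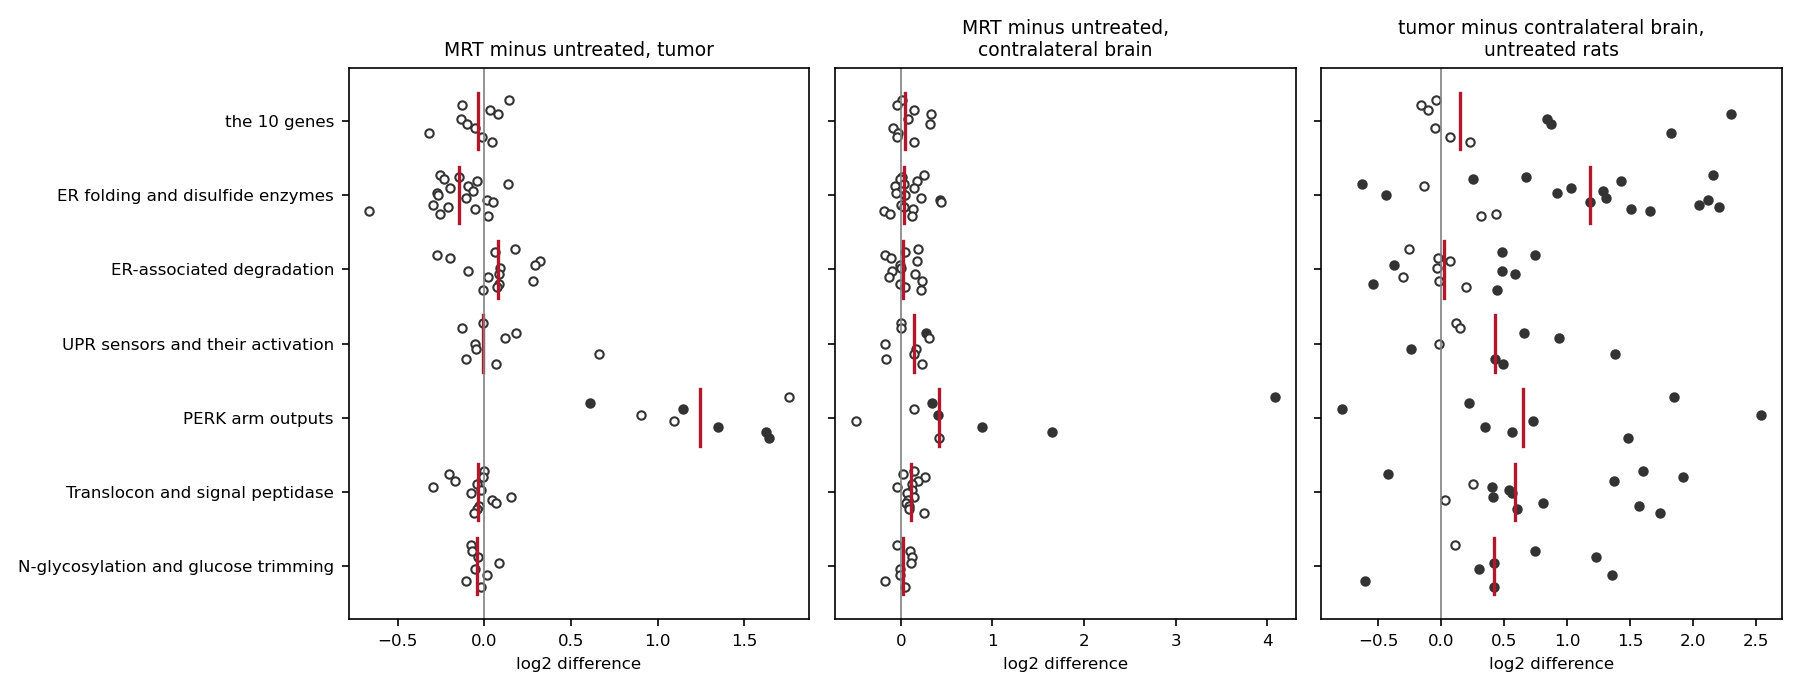
Log2 difference of each measured gene (brightest probe set) in the 10 chaperone genes and 6 further lists, for MRT minus untreated in tumor and in contralateral brain and for tumor minus contralateral brain in untreated rats, with filled points at limma adjusted p below 0.05 and a red line at each list median. The PERK outputs lie to the right after MRT (medians 1.25 in tumor and 0.41 in contralateral brain), and the folding enzymes lie to the right for the tissue difference (median 1.18).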

How the data were processed

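The authors ran RMA (Affymetrix Expression Console) on the probe intensities, which corrects background, normalizes the arrays by quantiles and combines probes, and the deposited value is one linear signal per probe set, rounded to a whole number. The deposited signals were taken to log2 here. Of 31099 probe sets, 57 controls were left out, and symbols were updated with the RefSeq rat gene table (19546 probe sets with 1 symbol, 372 with several, 11124 with none). limma 3.58.1 in R 4.3.3 compared MRT with untreated within each tissue (11 arrays) and, in one fit of 4 groups (22 arrays), the tissues and the interaction, with Benjamini-Hochberg adjustment over 31042 probe sets. SAM was rerun with 100 permutations (median FDR 4.81% in tumor and 4.75% in contralateral brain). Code was tested on simulated data. Rat numbers pair the tissues because both came from one animal: residuals of the same rat had a median correlation of 0.31 over 11 pairs, and those of different rats -0.06 over 110. The methods name 2 experimental sessions that the sample titles do not assign, so no session term was fitted. Members, gene lists and markers were chosen with earlier results of these data known. Outside the 10 genes, each list gave up to 2 genes per comparison by the largest called difference; the remaining list genes named were chosen after their values were seen. The alternatives covered scaling, a floor, filters, an FDR of 1%, labelling groups, the animal as a block and leaving out each rat. Leaving out rats 3 and 7 together was added after seeing the data.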

Additional observations from a re-analysis of the deposited data

Results flagged for a closer look

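Single arrays stood apart from the rest of their group in 10 of 72 groups of member signals, by the gap to the nearest array relative to the range of the group. Chance gives about 1 in 20 for a single group. The 72 groups are 18 probe sets read on the same 22 arrays and are not independent, so an excess over chance was not tested. Of these 10, 9 belong to rats 3 or 7, whose beta-actin 5′ signal was weakest. In MRT contralateral brain, rat 7 was lowest for Canx 1371686_at (7766, others 9729 to 10770), Canx 1371687_at (498, others 1074 to 1311), Sel1l 1373313_at (2881, others 3228 to 3320) and Hsp90b1 (5124, others 6475 to 7055). It was highest there for Calr (3546, others 2665 to 2845). In MRT tumor, rat 7 was lowest for Canx 1388442_at (3301, others 4912 to 5829). In untreated contralateral brain, rat 3 was lowest for Hspa5 (4079, others 5235 to 5764) and for Sel1l 1373313_at (2795, others 3366 to 3577), and highest for Edem1 1390328_at (35, others 21 to 22). The remaining array was rat 8 in MRT tumor, lowest for Calr (2037, others 3172 to 3461). The part of RNA integrity in these values was not tested.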

How the results depend on the processing

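The count of 2 Edem1 probe sets higher in MRT contralateral brain was 1 with an FDR of 1%, with all 4 groups in one fit, with low signals set to 58 and within rats of flat labelling gap, and 0 within rats of steep gap. It was also 0 with probe sets above the median level only, a filter that removed both. The gap (5′ minus 3′ signal of the labelling controls) divides the rats by their contralateral arrays, 5 flat and 6 steep; in tumor the groups overlap (-1.46 to -0.73 flat, -2.80 to -1.31 steep). Leaving out 1 rat gave 1 to 2 there, 0 in tumor, 9 to 9 for the tissues of untreated rats and 8 to 10 for those of MRT rats. The tissue count in MRT rats was 6 within steep-gap rats. Lost there were Hspa5 (log2 0.48, limma adjusted p = 0.1), Canx 1388442_at (0.45, 0.16), Canx 1371686_at (-0.15, 0.41) and Edem1 1390328_at (-0.37, 0.15). Flat-gap MRT rats lost Sel1l 1376073_at (0.33, 0.082) and Edem1 1390328_at (-0.22, 0.17). In untreated rats, Canx 1388442_at was lost with steep gap (0.57, 0.072) and Hyou1 1370665_at with flat gap (-0.22, 0.23). With the rat as a block (paired fit) the tissue counts were 10 in MRT rats (11 as a random block) and 9 in untreated rats, with 0 interaction calls. In MRT rats Sel1l 1392955_at was gained (adjusted p = 0.02, random block 0.046) and Edem1 1390328_at lost under the fixed block (0.057). With cyclic loess the median tissue difference of all probe sets was -0.01 in both groups of rats, against -0.10 in MRT and -0.12 in untreated rats, and the share of higher calls 51.9% and 52.3%, against 42.1% and 41.2%. The median pair correlation was 0.18 over tumor arrays, 0.23 over contralateral arrays and 0.14 without rats 3 and 7. CCACG alone was in 10 genes.

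No value called in the full data turned its sign (Edem1 1390328_at was -0.00 with low signals set to 58), and uncalled values near 0 did (log2, brightest probe set). MRT in contralateral brain, flat-gap rats: Dnajb9 -0.01, Hyou1 0.04, Pdia4 0.14, Canx 0.05; steep: Calr -0.02; without rats 3 and 7: Canx 0.01. MRT in tumor, flat: Dnajb9 -0.04, Calr -0.09, Xbp1 -0.26, Edem1 -0.01, Sel1l 0.02; steep: Hyou1 0.27. Tissues, untreated rats: loess Hyou1 0.05, Calr 0.03; flat both 0.45 (Calr passed, adjusted p = 0.013); steep Xbp1 -0.02 (flat 0.60, passed, 0.021); labelling block Calr 0.02; without rats 3 and 7 Calr 0.01. Tissues, MRT rats: loess Hyou1 0.05; steep Hyou1 0.03, Calr -0.07 (flat 0.26, passed, 0.039). Sel1l passed with loess (0.20, 0.024). Interaction, flat: Hyou1 -0.51, Calr -0.18; steep: Xbp1 0.11, Sel1l -0.02.

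Leaving out 1 rat also turned uncalled signs. For MRT in contralateral brain the ranges were -0.18 to 0.09 for Hyou1, -0.11 to 0.04 for Pdia4, -0.04 to 0.07 for Calr and -0.07 to 0.02 for Canx. For MRT in tumor they were -0.16 to 0.01 for Hspa5, -0.02 to 0.09 for Dnajb9, -0.16 to 0.05 for Hyou1, -0.02 to 0.13 for Xbp1, -0.01 to 0.17 for Edem1 and -0.05 to 0.03 for Sel1l. Between tissues they were -0.08 to 0.04 for Hyou1 in MRT rats, -0.22 to 0.24 for Hyou1 in untreated rats and -0.17 to 0.10 for Calr in untreated rats. For the interaction they were -0.25 to 0.21 for Hyou1, -0.01 to 0.26 for Calr, -0.21 to 0.01 for Xbp1 and -0.01 to 0.07 for Sel1l. The cause was not tested; the labelling groups hold only 5 or 6 rats.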
